A study of Arabidopsis thaliana with 2 samples.

Results

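The trichome birefringence-like (TBL) genes of Arabidopsis thaliana were compared between the auxin-resistant mutant axr4-2 and wild type. The genes were chosen as those with a probe set mapped to 1 gene whose symbol is TBL followed by a number, or TBR, ESK1 (TBL29) or PMR5 (TBL44). This gave 22 genes of 13356 named genes, each read by 1 probe set, and all 22 carry a TBL symbol. RefSeq's gene table for assembly TAIR10.1 names 46 genes of the family by symbol or synonym, of which 24 had a named probe set. The further 2, TBL40 (AT2G31110) and TBR (AT5G06700), are family genes by synonym only, and their values are given apart. The other 22 genes, among them ESK1, PMR5, TBL3, TBL10, TBL22 and TBL27, are not analysed here.

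The data are 1 array of axr4-2 plants and 1 array of wild-type plants, both of ecotype Col0, read on the 1-colour ATH1 platform with biotin-labelled cRNA made from total RNA of whole plants. Both had 24 h of light per day at 22 °C and growth stage 1.02 in the labels, although an unexplained code in the source names leaves the plants' age uncertain. The mutant line is represented by 1 allele, and the number of plants behind each RNA sample is not given in the sources used here. With 1 array per group there was no test, no SD between plants and no p-value, and each ratio describes this pair of arrays. In whole plants, fewer cells of a type and less RNA per cell cannot be told apart.

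TBL proteins are membrane proteins of the Golgi apparatus, and most of those studied transfer acetyl groups onto wall polysaccharides. Different members act on xylan, xyloglucan, mannan or pectin, and the RWA proteins are needed to supply acetyl groups for this step. Acetylation alters how the polysaccharides pack, bind each other and resist enzymes. The family takes its name from TBR, whose mutant has trichomes that lack the birefringence of crystalline cellulose. AXR4, the gene mutated in axr4-2, encodes a protein of the endoplasmic reticulum without which AUX1, a carrier that takes auxin up into cells, fails to reach the cell surface.

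Of the 22 genes, 13 were measured, meaning that the higher of a gene's intensities reached the median of its array (39.5 for axr4-2 and 42.7 for wild type). No measured TBL gene was 2-fold or more apart between the arrays, in a background of 2.41% of 6381 measured genes (0.940% higher and 1.47% lower in axr4-2). The largest ratios were those of TBL36 on the high side and TBL23 on the low side. Of the 13, 9 had a log2 ratio of axr4-2 over wild type above 0, where 45.7% of all measured genes did, and 4 were below 0, where 54.1% did. The median log2 ratio was 0.21 over the 13 genes and -0.04 over all measured genes. The middle of the distribution ran from -0.02 at the lower quartile to 0.45 at the upper quartile for the TBL genes, and from -0.29 to 0.20 for all measured genes. These counts and medians describe genes that had already passed a filter on signal, and they are no test of the family. TBL16 and TBL41 passed it through their axr4-2 value alone, their wild-type value lying below the array median. Of the 11 TBL genes at or above the median of both arrays, 7 lay above 0, against 45.6% of the 5602 genes of that kind.

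**Figure D1:**
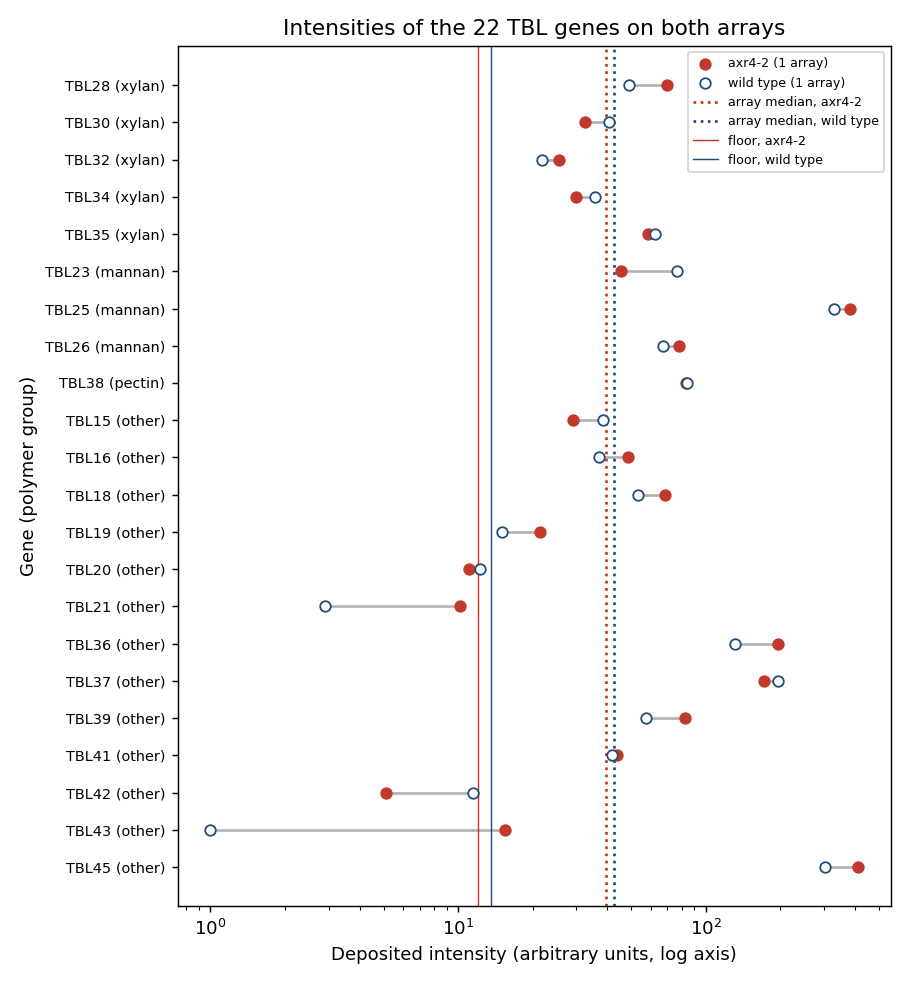
Deposited intensity (horizontal log axis, arbitrary units) of each of the 22 TBL genes, with 1 filled point for the axr4-2 array and 1 open point for the wild-type array. Genes are grouped by the polymer their product is known to act on, or as other where no polymer is assigned here. Dotted lines mark the array medians (39.5 and 42.7) and solid lines the floors (12.0 and 13.525). TBL36, TBL39, TBL28 and TBL45 have the filled point to the right, and TBL23 has it to the left.

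With no replicate plants, the only measure of error within these arrays was the disagreement between probe sets of 1 gene. Over the 30 genes read by more than 1 measured probe set, the SD attributable to each probe set alone was 0.41 on the log2 scale. This SD leaves out the spread between plants. The 2 brightest measured probe sets of a gene gave ratios of the same sign in 19 of the 30 genes. Of the 13 measured TBL genes, 4 were higher in axr4-2 by at least that SD, against a background of 11.0% of measured genes. These 4 became 5 with median centring, which added TBL16 (0.43), and 6 with the signal-dependent trend removed, which added TBL16 (0.58) and TBL18 (0.44). Quantile normalization gave 5, adding TBL16 (0.50) and TBL18 (0.43) and losing TBL45 (0.39). The background moved as well, to 12.9%, 14.0% and 12.5%. The 1 gene lower by at least that SD stood against a background of 16.6%. The remaining 8 differed by less than the SD of a single probe set. The SD of the log2 ratio across the 13 genes was 0.37, against 0.41 across all measured genes, so the members' ratios spread about as much as those of genes in general. Neither spread was clearly larger than the SD of a single probe set, also 0.41. That SD was pooled over genes of any brightness. The SD of the log2 ratio was 0.50 among the dimmest 2127 measured genes and 0.32 among the brightest 2127. The pooled 0.41 may therefore be too large a measure of error for bright genes and too small for dim ones.

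Xylan acetylation genes were mixed. TBL28, whose product is one of the enzymes that acetylate xylan, read 69.6 in axr4-2 against 48.9 in wild type (log2 ratio 0.51). TBL35, which acts on the same polymer, read 58.2 and 62.5 (-0.10). Thus 1 of the measured pair was higher by more than the SD of a single probe set and the other was nearly equal, and the difference between their ratios, 0.61, was slightly above the 0.58 expected as the SD of a difference between 2 probe sets. The other xylan genes with a named probe set, TBL30, TBL32 and TBL34, were dim on both arrays. TBL30 read 32.4 in axr4-2 and 40.7 in wild type (-0.33), just short of the filter. TBL34 read 30.0 and 35.8 (-0.25), and TBL32 read 25.6 and 21.8 (0.23) with a probe set that may be shared between transcripts and a wild-type value within the range of the Bacillus control probe sets. Of the 5 named xylan genes, TBL28 and TBL32 were thus brighter in axr4-2, and TBL30, TBL34 and TBL35 were brighter in wild type.

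TBL28 and TBL30 are neighbours on chromosome 2, with no other protein-coding gene between them in the RefSeq table, and their ratios had opposite signs. The difference was 0.84 on the log2 scale, and 0.77 after quantile normalization, against an SD of 0.58 for a difference between 2 probe sets. TBL30 did not pass the filter, and its ratio (-0.33) lay within the SD of a single probe set. The family's other neighbouring pair, TBL21 and TBL19 on chromosome 5, gave no usable difference. TBL21 lay below the floor on both arrays (10.2 and 2.9). TBL19 read 21.5 in axr4-2 and 15.1 in wild type, which is within the range of the Bacillus control probe sets on the wild-type array, where the brightest read 27.1.

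Mannan acetylation genes held the family's lowest ratio. TBL23, TBL25 and TBL26 are related genes whose products acetylate mannan, and all 3 were measured. TBL23 read 45.3 in axr4-2 against 76.3 in wild type, which was 1.68-fold higher in wild type (log2 ratio -0.75). TBL25 read 383.7 and 330.8 (0.21), and TBL26 read 77.6 and 66.9 (0.21). TBL25 and TBL26 were thus slightly higher in axr4-2 by the same ratio, within the SD of a single probe set, while TBL23 was lower. TBL23 differed from each of them by 0.97 on the log2 scale, and by 0.84 (TBL25) and 0.95 (TBL26) after quantile normalization, against an SD of 0.58 for a difference between 2 probe sets. Among all measured genes, 4.45% had a ratio at or below that of TBL23.

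The pectin gene TBL38 was equal on both arrays. Its intensity was 83.0 in axr4-2 against 84.2 in wild type (-0.02), a sign that turned with each scaling, to 0.02 with median centring, 0.03 with quantile normalization and 0.04 with the signal-dependent trend removed. Its product is unusual in the family in that it removes acetyl groups from pectin rather than adding them. TBR read 232.7 and 244.5 (-0.07), also within the SD of a single probe set.

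The 2 highest ratios, those of TBL36 and TBL39, belonged to members for which no polymer is assigned here. TBL36 read 195.0 in axr4-2 against 130.9 in wild type, a 1.49-fold difference (log2 ratio 0.57). TBL39 read 82.3 and 57.4 (0.52), and TBL45 read 412.0 and 301.8 (0.45). These 3 genes and TBL28 were the 4 that exceeded the SD of a single probe set on the high side. TBL16 (48.5 and 36.9, 0.39) and TBL18 (68.4 and 53.3, 0.36) were higher by slightly less than that SD. TBL41 read 43.7 and 41.8 (0.06), and TBL37 read 171.9 and 194.8 (-0.18), the only measured gene of this group of 7 below 0. TBL36 and TBL37, both well above background on both arrays, differed in their log2 ratio by 0.76.

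**Figure D2:**
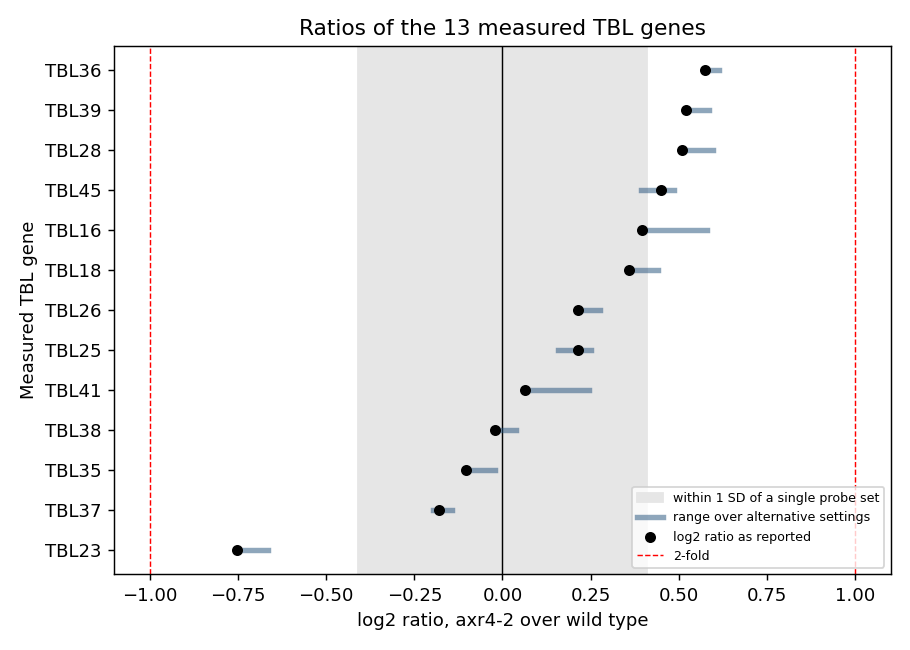
Log2 ratio of axr4-2 over wild type (horizontal axis) of the 13 measured TBL genes, with a point for the value as reported and a bar for its range over alternative settings. The grey band spans 1 SD of a single probe set (0.41) on either side of 0 and dashed lines mark a 2-fold difference. TBL36, TBL39, TBL28 and TBL45 lie to the right of the band, TBL23 lies to its left, and none reaches 2-fold.

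Ratios depended on brightness across the whole array, and the TBL genes were set against genes of their own brightness for this reason. Measured genes were divided by mean log2 intensity into 3 classes of 2127 genes. The share above 0 was 39.7% in the dim class, 45.3% in the middle class and 52.2% in the bright class, and the SD of the log2 ratio was 0.50, 0.38 and 0.32. The TBL genes above 0 were 5 of 7 in the dim class, 1 of 2 in the middle class and 3 of 4 in the bright class. In the bright class, 3.34% of genes had a ratio above that of TBL36 and 7.19% had one above that of TBL45. In the dim class, 9.69% had a ratio above that of TBL39, 10.0% one above that of TBL28, and 8.56% one below that of TBL23. The ratios of TBL36 and TBL45 thus came from a range of signal where ratios spread less between genes. Those of TBL39, TBL28 and TBL23 came from one where ratios of this size were more common. The disagreement between probe sets of 1 gene was not computed by class.

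**Figure D3:**
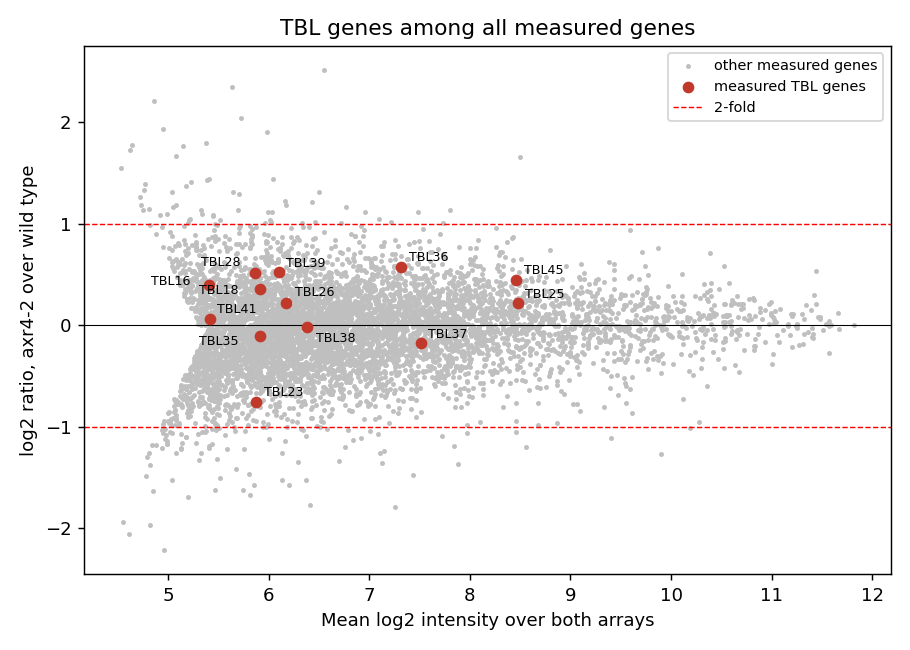
Log2 ratio of axr4-2 over wild type (vertical axis) against mean log2 intensity over both arrays (horizontal axis) for the 6381 measured genes, with 1 point per gene and the 13 measured TBL genes in red. Dashed lines mark a 2-fold difference. The TBL genes lie within the cloud of other genes, with TBL36 and TBL45 towards its upper edge at high signal and TBL23 towards its lower edge at low signal.

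The 9 TBL genes that were not measured read between 5.1 and 32.4 in axr4-2 and between 1.0 and 40.7 in wild type. Their intensity was higher in axr4-2 in 4 cases and lower in 5. TBL20, TBL21, TBL42 and TBL43 lay within the range of the Bacillus control probe sets on both arrays, and each had at least 1 value below the floor, so they carry no usable ratio. TBL43, for example, read 15.5 in axr4-2 and 1.0 in wild type. TBL15, nearest to the filter after TBL30, read 29.0 and 38.6 (-0.41). Just inside the filter, TBL41 and TBL16 had log2 ratios of 0.06 and 0.39, whereas TBL30, TBL15 and TBL34 just outside it had -0.33, -0.41 and -0.25. Farther from the filter, members of both signs lay on both sides, such as TBL23 (-0.75) inside it and TBL19 (0.51) outside it. Over all 22 genes, with neither floor nor filter, 13 had the higher intensity in axr4-2 and 9 in wild type, where 40.4% of all named genes were higher and 58.3% lower in axr4-2. With the floor and no filter, the median log2 ratio of the 22 genes was 0.13, beside -0.17 for all named genes, a value that is the ratio of the floors.

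TBL40 was the only family gene read by 2 probe sets. Its brighter probe set read 63.8 in axr4-2 against 61.6 in wild type (0.05), and its dimmer one 48.0 and 56.9 (-0.25). The pair thus differed in sign, by less than the SD of a difference between 2 probe sets. With TBL40 and TBR counted, 10 of 15 measured family genes lay above 0 and the median stayed at 0.21.

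Other genes of wall polysaccharide synthesis could be named for few cases. Of 92 genes in 9 lists, which covered acetyl donors, wall deacetylation, xylan, xyloglucan, mannan, homogalacturonan, cellulose and secondary walls, 84 matched the gene table, 10 had a named probe set and 8 were measured. By symbol or synonym, no gene of the lists for acetyl donors (the RWA genes), wall deacetylation or homogalacturonan synthesis had a named probe set. The same held for secondary wall cellulose and lignin, and for secondary wall transcription factors. PAE2 of the wall deacetylation list was matched by its symbol to AT3G14290. Whether that locus is the gene meant was not checked, and PAE4, PAE5, PAE10 and PAE12 matched no gene. Wall deacetylation genes may therefore be among the measured genes under other names, and the counts hold for these matches only. Of the 8 measured genes, 4 lay above 0 and 4 below under each scaling tried, none was 2-fold apart, and the median was -0.05. COB, which encodes a membrane-anchored protein needed for oriented cellulose deposition, was the highest at 374.3 in axr4-2 and 268.4 in wild type (0.48). CSLA3, of the glucomannan synthase family, was the lowest at 147.5 and 193.6 (-0.39).

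The few measured synthesis genes of xylan, xyloglucan and mannan gave no common direction. Each of their ratios lay within the SD of a single probe set (0.41). For xylan, IRX10, a xylan backbone synthesis gene, read 52.5 and 56.7 (-0.11) and IRX15L read 40.1 and 52.6 (-0.39). The measured xylan TBL genes beside them were TBL28 at 0.51 and TBL35 at -0.10. For xyloglucan, the backbone synthase genes CSLC8 (0.20), CSLC4 (0.02), CSLC5 (0.00) and CSLC6 (-0.17) had a median of 0.01. For mannan, CSLA3 at -0.39 lay between TBL23 at -0.75 and TBL25 and TBL26 at 0.21.

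Markers of plant parts and of RNA quality were set beside these values. The shoot markers RCA, PRK and LHCB4.1 had log2 ratios of 0.08, 0.11 and 0.12, the root marker PYK10 had 0.01 (-0.04 with quantile normalization), and the root hair markers EXPA7 and EXPA18 had -0.30 and 0.06. No listed marker of vascular tissue or trichomes had a named probe set, so the share of those cells was not tested. Control probe sets at the 3′ and 5′ ends of a transcript give a 3′ over 5′ ratio that increases as RNA degrades. By the newer probe sets, ubiquitin gave 1.81 in axr4-2 against 2.26 in wild type, and by the older ones 2.36 against 3.71. GAPDH gave 1.05 against 1.03 by the newer probe sets and 1.27 against 2.14 by the older ones. Actin gave 2.12 against 3.23 by the newer probe sets but 7.78 against 4.08 by the older ones. The part of these differences in the TBL ratios was not tested.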

How the data were processed

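The authors deposited linear intensities, 1 for each of 22810 probe sets per array, with a mean of 100.01 on both arrays after trimming 2% at either end. How they were summarised and corrected for background is not given in the sources used here. Probe sets were named through the platform annotation's gene identifiers and the RefSeq table (13513 with 1 gene, 503 with several, 8794 unnamed here). Values below the 25th percentile of their array (12.0 and 13.525) were raised to it before the log2 ratio was taken. Where a gene had several probe sets the brightest was used. The filter is given in the text, and 2-fold or more (a log2 ratio of 1) was the threshold.

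All 22 TBL genes are named, as are the 2 highest and 2 lowest measured genes of each other list. Members, lists and thresholds were chosen with earlier results of these data known, and the pairs of genes set against each other after their values were seen. Sequence comparisons (paralogue identity, protein and promoter motifs) were planned but are not given, since no sequences were used here. The log2 ratio calculation was checked on simulated data with 200 altered genes, with a limit on the error for each scaling except quantile normalization. The other calculations were not checked in this way. Alternatives covered scaling, floor, filter and probe set choice. The tools were Python 3.11.15, numpy 2.4.6, pandas 2.3.3, scipy 1.17.1, statsmodels 0.14.6 and matplotlib 3.10.9.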

Additional observations from a re-analysis of the deposited data

How the results depend on the processing

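Under 9 alternatives of scaling (centring on the median, quantiles made equal, or a lowess trend of span 0.3 subtracted), floor, filter and probe set choice, the median log2 ratio of the TBL genes, 0.21 as reported, ranged from 0.13 with no filter to 0.33 when the filter was raised to the 75th percentile, and none of the TBL genes measured under a setting was 2-fold apart. With the floor at the 10th percentile, 3 unmeasured genes passed 2-fold (TBL43 at 2.63, TBL21 at 1.81 and TBL42 at -1.17), all with both values within the range of the control probe sets. The count above 0, 9 of 13, became 10 of 13 under each of the 3 scalings, while the share of all genes above 0 moved from 45.7% to 50.0%, 47.9% and 49.9%. It became 3 of 4 with the stricter filter (50.7% of all genes) and 12 of 22 with no filter (30.2%). With no filter, a gene below both floors takes the ratio of the floors, -0.17, and so counts as not above 0 by construction. With neither floor nor filter, 13 of 22 had the higher intensity in axr4-2, where 40.4% of all named genes did. The 154 genes that were 2-fold or more apart became 326 with no filter and 47 with the stricter filter. These were 2.44% of 13356 and 1.52% of 3083 genes, against 2.41% as reported, so the first follows the number of genes counted and the second also a lower share. The lowess setting gave 107 genes higher and 51 lower in place of 60 and 94, and quantile normalization 76 and 70. Of 108 alternative values of single TBL genes, none moved by more than the SD of a single probe set, and 3 changed sign, all of them values of TBL38. Only the 3 scalings could alter these values. Each of the genes had 1 probe set and read above every floor tried, so the other settings left its ratio unchanged by construction. Alternatives chosen after seeing the data gave medians of 0.17 with the mean in place of the median, 0.29 without TBL23, 0.21 with TBL40 and TBR, and 0.21 with the filter on the mean of both arrays. No paired analysis was possible because each group has 1 array. For the same reason no array could be left out. Signal over background limits the dim genes, since the brightest Bacillus control probe sets read 18.1 in axr4-2 and 27.1 in wild type.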
